A study of Mus musculus with 4 samples.

Results

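The genes described here encode the CD3 chains of the T cell receptor complex (Cd3d, Cd3e, Cd3g and Cd247), the constant parts of the T cell receptor alpha and beta chains (Trac, Trbc1 and Trbc2) and the coreceptor CD4 (Cd4). These 8 genes, of 52636 in the deposited count table, were chosen by name after earlier results of these libraries were known, and their levels are therefore given as a description, with no test. RNA was sequenced from 4 libraries of regulatory T cells that had been sorted from mice by the gate CD4+CD62L+CD25bright. The first 2 libraries were labelled Vav1R63W and the other 2 Vav1R63WThemis1-T-/-, called deletion-labelled here, and each group holds replicates 2 and 3. The title of the series concerns Themis1, the phosphatase SHP-1, Vav1 and RelA in regulatory T cells, and the comparison asks what the loss of Themis1 in T cells does to the transcripts of cells that carry the Vav1R63W allele. All mice were C57BL/6 and 7 weeks old. Both groups carry Vav1R63W, and no library with wild-type Vav1 is among the 4. The promoter that drives the deletion in T cells is not given in the sources used here. The labels do not say whether a group's replicates are separate animals. The p-values thus measure no more than the spread between the samples at hand, and that spread may be technical.

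The T cell receptor is a pair of alpha and beta chains that bind antigen but carry almost no signalling tail. It is held at the cell surface with a gamma-epsilon and a delta-epsilon pair of CD3 chains and a homodimer of the zeta chain, which Cd247 encodes. The CD3 and zeta tails carry immunoreceptor tyrosine-based activation motifs (ITAMs), in which a pair of tyrosines is phosphorylated by LCK and then bound by ZAP-70. In regulatory T cells this signal supports the suppressive programme, and CD4 brings LCK to receptors that are bound to MHC class II.

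The motifs are shown because the chain that stood apart in these libraries is the one with most of them. Each line gives the coding strand of a motif from its first tyrosine codon, read from GENCODE M21 transcripts on build GRCm38, with the pair of tyrosine codons in capitals.
Cd3d motif: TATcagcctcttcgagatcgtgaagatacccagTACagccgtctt
Cd3e motif: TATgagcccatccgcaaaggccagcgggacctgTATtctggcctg
Cd3g motif: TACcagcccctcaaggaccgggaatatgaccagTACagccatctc
Cd247 motif 1: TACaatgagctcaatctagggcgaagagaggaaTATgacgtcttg
Cd247 motif 2: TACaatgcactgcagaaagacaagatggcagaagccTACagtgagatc
Cd247 motif 3: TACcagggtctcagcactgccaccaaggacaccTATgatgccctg

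A search of the coding sequences for this arrangement found 1 motif in each of Cd3d, Cd3e and Cd3g, 3 in Cd247 and 0 in Cd4. The Cd247 motifs lie at chr1:165856451-165857454, chr1:165858473-165859260 and chr1:165859819-165861042 on the plus strand. Those of Cd3d, Cd3e and Cd3g lie at chr9:44986095-44986311 (plus strand), chr9:44999549-45000440 (minus strand) and chr9:44970735-44971268 (minus strand). Each span holds an intron within the motif. Cd247 has the shortest coding sequence of the 4 CD3 chain genes, 492 bases, against 519 for Cd3d, 546 for Cd3g and 567 for Cd3e. Cd3g, Cd3d and Cd3e are neighbours within 40056 bases of chromosome 9, and the starts of Cd3d and Cd3g, which point away from each other, are 1355 bases apart.

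Reads assigned to genes numbered from 13963670 to 15953194 a library. Themis, the targeted gene, had 283 and 97 reads in Vav1R63W replicates 2 and 3, 685 in the library labelled Vav1R63WThemis1-T-/- replicate 2 and 0 in the library labelled replicate 3. Replicate 2 of the deletion-labelled group thus goes against its label, and the exons that were deleted are not given in the sources used here. Its Pearson correlation of log2 CPM was 0.741 with Vav1R63W replicate 2 and 0.661 with deletion-labelled replicate 3, which correlated at 0.650 to 0.666 with the 3 other libraries. For genes whose groups did not overlap, the fold change without the library labelled replicate 2 is given below for Cd247 and wherever it moved the value by over 1.5 times. Foxp3, the lineage factor of regulatory T cells, and Il2ra, which encodes the sort marker CD25, were read at 636 to 1014 and 223 to 325 CPM, where CPM is the reads of a gene per 1000000 reads assigned to genes in that library. Across all 10216 tested genes, edgeR's quasi-likelihood test called 0 at an adjusted p under 0.05 (0.0%), with 509 at an unadjusted p under 0.05; DESeq2 called 206 of 10748 (1.92%) and limma-voom 0.

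Cd247, the zeta chain, was higher in the libraries labelled Vav1R63WThemis1-T-/-, while the other 7 genes had log2 fold changes under 0.25 in size, as did 58.1% of the 2005 genes with a mean of at least 100 CPM. Cd247 (ENSMUSG00000005763, chr1:165788681-165877277, plus strand) stood at 103 and 126 CPM in Vav1R63W libraries, and at 284 and 335 CPM in the libraries labelled Vav1R63WThemis1-T-/-. Both deletion-labelled libraries were above both others, and the lower of them was 2.25 times the higher Vav1R63W library. The group means were 115 ± 16.1 and 309 ± 36.4 CPM (SD, n = 2 each), a ratio of 2.70 and a fitted log2 fold change of 1.46 ± 0.23 (SE). Without the deletion-labelled library in which Themis was read, the log2 fold change was 1.59. Over all 4 ways of leaving out a library it lay between 1.29 and 1.63. Cd247 was thus high both in the library with 685 Themis reads and in the one with 0.

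**Figure D1:**
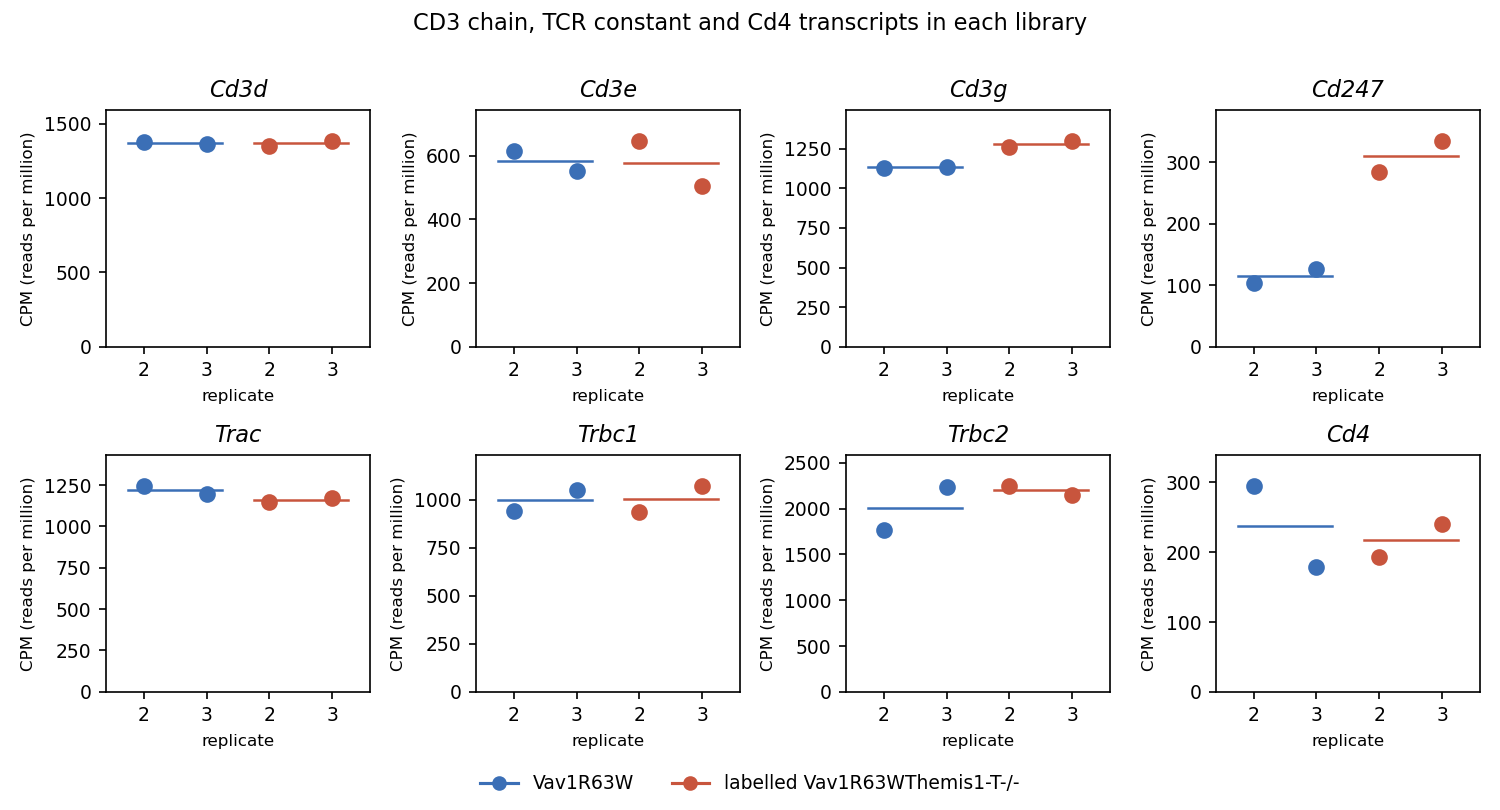
Level of each gene in CPM (vertical axes, starting at 0) in each library by replicate number (horizontal axes), with a line at each group's mean. Cd247 shows both deletion-labelled libraries, 284 and 335 CPM, above both Vav1R63W libraries, 103 and 126 CPM, while Cd3d stays between 1354 and 1388 CPM.

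The 3 other CD3 chains did not share that pattern. Cd3d (ENSMUSG00000032094, chr9:44981786-44987339, plus strand), the delta chain, stood at 1379 and 1362 CPM in Vav1R63W libraries and at 1354 and 1388 CPM in the deletion-labelled ones. Its groups overlapped, and the highest library was 1.02 times the lowest. The log2 fold change was 0.03 ± 0.10 (SE).

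Cd3g (ENSMUSG00000002033, chr9:44969572-44980431, minus strand), the gamma chain, stood at 1131 and 1135 CPM in Vav1R63W libraries, and at 1259 and 1302 CPM in the deletion-labelled ones. The groups did not overlap, but the ratio of the means was only 1.13 (1133 ± 3.20 against 1280 ± 30.4 CPM, SD, n = 2 each). The fitted log2 fold change, 0.20 ± 0.10 (SE), stayed between 0.15 and 0.24 when any 1 library was left out.

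Cd3e (ENSMUSG00000032093, chr9:44998740-45009627, minus strand), the epsilon chain shared by both CD3 pairs, stood at 616 and 553 CPM in Vav1R63W libraries, and at 647 and 506 CPM in the deletion-labelled ones. The deletion-labelled group held both the highest and the lowest library, so the groups overlapped (log2 fold change 0.01 ± 0.16, SE). Left-out libraries moved this value between -0.16 and 0.15.

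As a share of the reads on the 4 CD3 chain genes, Cd247 made up 3.20% and 3.97% in Vav1R63W libraries and 8.0% and 9.49% in the deletion-labelled ones. The share of Cd3d, 42.7% and 42.9% in the first group, was lower in both libraries of the second, at 38.2% and 39.3%. Shares of Cd3g (35.0% to 36.9%) and Cd3e (14.3% to 19.1%) overlapped between the groups. These shares sum to a whole within a library, so a larger Cd247 share lowers the others by construction.

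**Figure D2:**
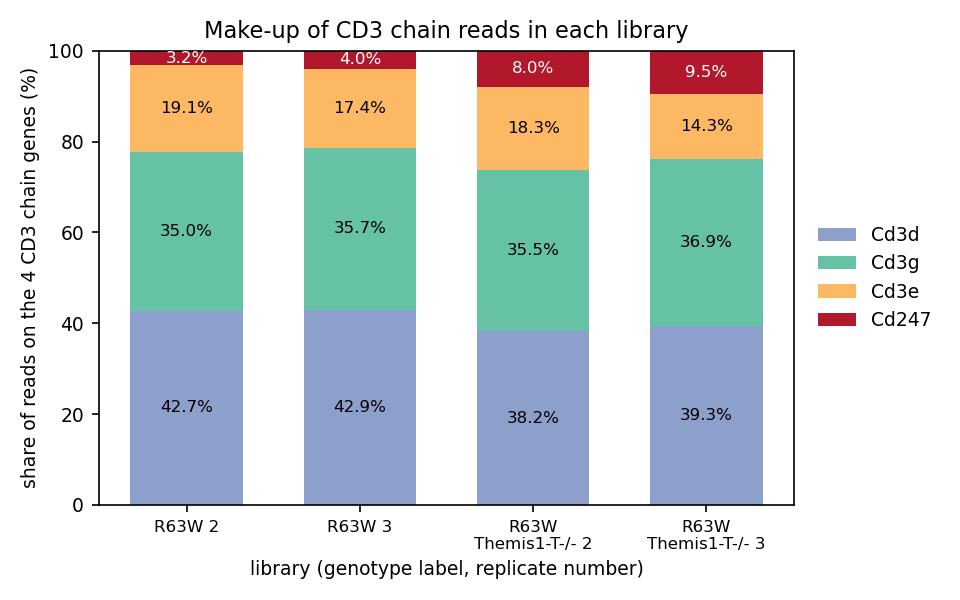
Percent of the reads on the 4 CD3 chain genes that fell on each gene (vertical axis) in each library (horizontal axis, genotype label and replicate number). The Cd247 band is 3.20% and 3.97% in Vav1R63W libraries and 8.0% and 9.49% in the deletion-labelled libraries.

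The zeta chain joins the complex beside the CD3 pairs. Its reads were therefore also set against those of Cd3e, Cd3d, Cd3g and Trac within a library, which removes depth and scaling. There were 0.168 and 0.228 Cd247 reads for each Cd3e read in Vav1R63W libraries, and 0.438 and 0.662 in the deletion-labelled ones. Per Cd3d read the values were 0.0749 and 0.0926 against 0.209 and 0.241. Per Cd3g read, whose own groups did not overlap, they were 0.0913 and 0.111 against 0.225 and 0.257. Per Trac read they were 0.0829 and 0.105 against 0.247 and 0.285. All of these groups were apart, with ratios of the group means of 2.78, 2.69, 2.39 and 2.83 in the order given. The ratio of Cd3g to Cd3d, neighbours with divergent starts, was 0.820 and 0.834 in Vav1R63W libraries and 0.929 and 0.938 in the deletion-labelled ones.

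The constant gene of the alpha chain, Trac (ENSMUSG00000076928, chr14:54220521-54224206, plus strand), stood at 1246 and 1196 CPM in Vav1R63W libraries and at 1147 and 1175 CPM in the deletion-labelled ones. The groups did not overlap, with the deletion-labelled libraries lower by a ratio of means of 0.951. The log2 fold change was -0.05 ± 0.10 (SE), smaller than its error, and -0.01 without the deletion-labelled library in which Themis was read.

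The beta chain uses either of a pair of constant genes, Trbc1 and Trbc2, which lie on the plus strand of chromosome 6 at chr6:41538218-41539881 and chr6:41546730-41548352, with starts 8512 bases apart. Trbc1 (ENSMUSG00000076490) stood at 941 and 1054 CPM in Vav1R63W libraries and at 937 and 1074 CPM in the deletion-labelled ones. Trbc2 (ENSMUSG00000076498) stood at 1771 and 2236 CPM in Vav1R63W libraries and at 2249 and 2150 CPM in the deletion-labelled ones. Both genes overlapped between the groups, with log2 fold changes of 0.04 ± 0.15 and 0.16 ± 0.15 (SE). Vav1R63W replicate 2 was the lowest library for Trbc2, and without it the Trbc2 log2 fold change was -0.03, while without Vav1R63W replicate 3 it was 0.36. The reads on both beta genes together numbered 2.18 for each Trac read in that library, and 2.74 to 2.78 in the other 3.

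The beta constant genes are nearly the same in their coding parts, and the count of each leaves out reads that map to both. Their 518 coding bases differ at 23 positions (95.6% identity), while the transcripts past the coding part share 52.5% of aligned positions. A stretch of 100 coding bases that holds 16 of the differences is shown, with the differing bases in capitals. Within this stretch, only reads that cover such letters can be told apart between the genes.
Trbc1: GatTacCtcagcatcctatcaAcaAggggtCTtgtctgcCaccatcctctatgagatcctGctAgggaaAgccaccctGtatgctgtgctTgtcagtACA
Trbc2: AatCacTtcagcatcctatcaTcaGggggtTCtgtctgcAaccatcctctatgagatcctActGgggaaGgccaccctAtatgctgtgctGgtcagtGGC

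These stretches span an intron and come from chr6:41539121-41539317 and chr6:41547617-41547860 (GRCm38, plus strand). Of all runs of 50 bases in the Trbc1 transcript, 41.1% are also found in that of Trbc2, and a read within such a run cannot be placed on 1 gene. The sum of the pair does not depend on which of them a read was given to, though reads that map to both are missing from it. It stood at 2713 and 3290 CPM in Vav1R63W libraries and at 3187 and 3224 CPM in the deletion-labelled ones. These sums overlapped between the groups.

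Cd4 (ENSMUSG00000023274, chr6:124864692-124888221, minus strand), the coreceptor used in the sort, stood at 295 and 179 CPM in Vav1R63W libraries and at 193 and 241 CPM in the deletion-labelled ones. Both the highest and the lowest library were labelled Vav1R63W, and the groups overlapped. The log2 fold change was -0.09 ± 0.32 (SE), and lay between -0.39 and 0.28 with 1 library left out.

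**Figure D3:**
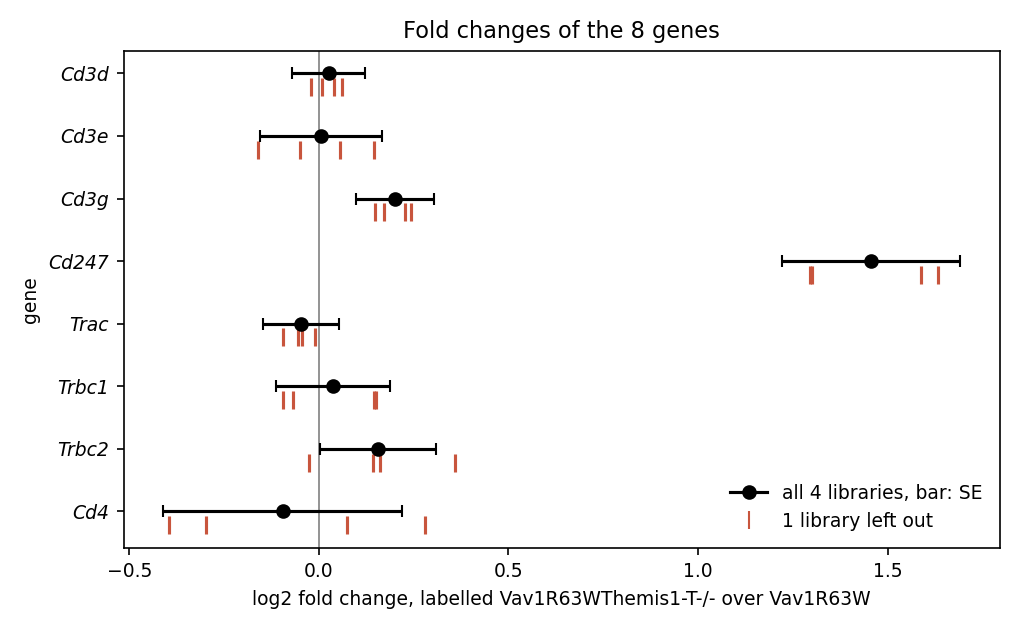
Log2 fold change of the libraries labelled Vav1R63WThemis1-T-/- over Vav1R63W (horizontal axis) for each gene (vertical axis), with points for all 4 libraries, bars of 1 standard error either side, and a tick for each fit with a library left out. Cd247 lies at 1.46 with ticks from 1.29 to 1.63, and the other 7 genes lie between -0.09 and 0.20.

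In all, the groups did not overlap for 3 of the 8 genes, beside 34.0% of the 2005 genes with a mean of at least 100 CPM. Of these, 2 were higher (Cd3g and Cd247), beside 17.3%, and 1 was lower (Trac), beside 16.7%. An absolute log2 fold change of at least 1 was found for 1 of the 8, beside 2.14% of those genes, and of at least 0.5 for the same 1, beside 15.4%. The edgeR test called 0 of the 8 and DESeq2 called 1, Cd247. The authors' deposited table, which calls 123 of 7865 genes (1.56%), also called 1 of the 8, again Cd247, with a log2 fold change of 1.33 in the authors' deposited table. Because this comparison was known when the genes were chosen, nothing is read from these counts. In a bulk sample, fewer cells that express a gene and less RNA per cell cannot be told apart.

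The spread of each gene over the 4 libraries, whatever their label, was set against the same 2005 genes. The standard deviation of log2 CPM was 0.02 for Cd3d, and only 1 of the 2005 genes had a smaller one. It was 0.05 for Trac, with 30 genes below it. Cd3g and Trbc1 both had 0.10, Cd3e and Trbc2 both 0.16, and Cd4 had 0.33. The median gene had 0.27, so 6 of the 8 members lay below it and Cd4 above. The 2005 genes were not matched for level. Those 6 members had means of 580 to 2101 CPM, against 227 for Cd4 and 212 for Cd247. The part of level in these ranks was not tested. Cd247 had 0.84, and 97.4% of the genes had a smaller value. For Cd247 this mostly restates the difference between the labels given above, which was known when the genes were chosen.

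**Figure D4:**
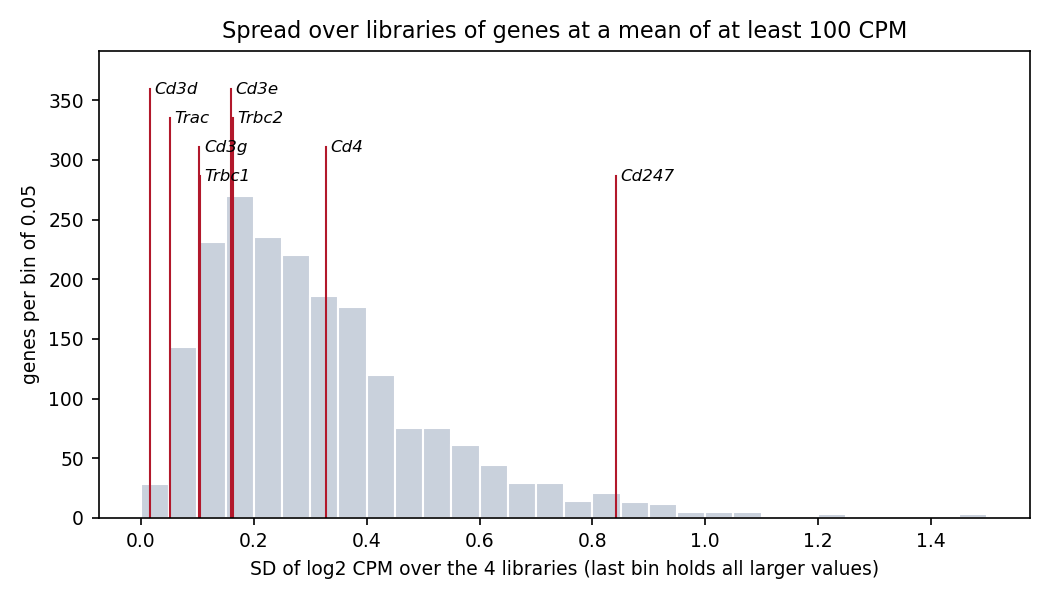
Number of genes (vertical axis) by the standard deviation of their log2 CPM over the 4 libraries (horizontal axis), for the 2005 genes with a mean of at least 100 CPM, with a red line for each gene described here. Cd3d at 0.02 and Cd247 at 0.84 lie near opposite ends, and the median of all is 0.27.

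Levels of different genes can be set in order only per length, here as mean CPM over the 4 libraries per kilobase of exonic sequence that no other gene shares (GENCODE M21). Trbc2 was highest at 3037, followed by Trbc1 at 1337 and Trac at 1274, whose libraries overlapped. The Trbc1 and Trbc2 values leave out reads that map to both. Next were Cd3d at 755, Cd3g at 369, Cd3e at 147, Cd247 at 100.2 and Cd4 at 56.3. Cd3d and Cd3g were apart in every library, as were Cd3g and Cd3e. Cd247 changed its place with the label. In the Vav1R63W libraries it stood at 48.8 and 59.6 per kilobase, in the range of Cd4 (44.3 to 73.2). In the deletion-labelled ones it stood at 134 and 158, in the range of Cd3e (128 to 164). With the principal transcript as the length, chosen after seeing the data, Trac (2883) was above Trbc1 (1956), and Cd3g (1179) above Cd3d (848). On that scale Cd247 stood at 198 and 234 in the deletion-labelled libraries, below Cd3e (381 to 488). The order of the first pairs, and whether Cd247 reached the range of Cd3e, therefore rest on the length used. Of the reads summed over both strand columns, 30.0% to 39.7% for Cd3e and 3.05% to 17.4% for Cd247 were also missing from these counts. The length used leaves out the shared bases too, and how far the missing reads lower the values per kilobase was not tested. Whether Cd247 reached the range of Cd3e is thus not settled here.

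Overlapping genes touch Cd3e and Cd247, and the TruSeq kit in the labels keeps no strand information. Of the exonic bases of Cd247, 60.3% are shared with other genes, most of them (3007 bases) with Pou2f1 on the opposite strand, which encodes the transcription factor OCT-1. Reads there were left out of both genes. Pou2f1 had 288, 119, 477 and 92 reads in Vav1R63W replicates 2 and 3 and deletion-labelled replicates 2 and 3. Cd247 had 1446, 1815, 4524 and 4679 reads in the same order of libraries. These Pou2f1 reads come from outside the shared bases, and the part of the overlap in the Cd247 difference was not tested. When the counts of the 2 strand columns were summed, which returns overlap reads to both genes, Cd247 stood at 114 and 153 CPM against 295 and 346 CPM (log2 fold change 1.30). Of these summed Cd247 reads, 9.11% and 17.4% were missing from the unstranded column in Vav1R63W libraries. In the deletion-labelled libraries 3.83% and 3.05% were missing, so the loss was unequal between the labels. Cd3e shares 3.31% of its exonic bases with the antisense gene Gm48719, which had 0 reads in every library. For Cd3e the summed count was larger, since 30.0% to 39.7% of its summed reads were missing from the unstranded column. It then stood at 951 and 917 CPM in Vav1R63W libraries and at 925 and 808 CPM in the deletion-labelled ones, again with overlapping groups. The Cd3e and Cd247 levels in CPM above are therefore lower bounds.

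The stretches of 250 bases before the start of the least and the most variable CD3 gene are shown from RefSeq (GRCm38.p6), with GGAA, the core letters of ETS family sites, in capitals on either strand (GGAA or TTCC). The Cd3d stretch is chr9:44981536-44981785 and the Cd247 stretch chr1:165788431-165788680, both on the plus strand.
Cd3d promoter: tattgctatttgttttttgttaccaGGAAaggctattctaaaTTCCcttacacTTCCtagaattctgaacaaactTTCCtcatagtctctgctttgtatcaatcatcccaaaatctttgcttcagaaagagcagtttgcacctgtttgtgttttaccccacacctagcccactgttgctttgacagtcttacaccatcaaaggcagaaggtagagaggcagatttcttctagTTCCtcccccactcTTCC
Cd247 promoter: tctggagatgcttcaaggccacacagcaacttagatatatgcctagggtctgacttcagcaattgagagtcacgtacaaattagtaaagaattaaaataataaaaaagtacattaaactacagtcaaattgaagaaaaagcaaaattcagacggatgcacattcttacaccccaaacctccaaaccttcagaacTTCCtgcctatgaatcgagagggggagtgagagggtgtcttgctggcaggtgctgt

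GGAA was found 6 times before Cd3d, 5 times before Cd3e, 2 times before Cd3g and 1 time before Cd247. Of 27025 promoters of this length, 93.4% held at least 1 match, with a median of 3, and 8.70% held at least 6. TATAAA, searched on both strands, was in none of the 4 stretches and in 13.0% of all. AGATAA, a motif of GATA factors, was found 1 time before Cd3g and in 10.3% of all promoters. TGTGGT, a motif of RUNX factors, was in none of the 4 and in 14.2% of all. None of these motifs contains another, and a match describes letters only. The RefSeq table matched 4 of the 8 genes.

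Genes with the most similar pattern over the 4 libraries were found among 3590 genes with a mean of at least 50 CPM, by the Euclidean distance between log2 CPM profiles centred on their means. For Cd247 these were Hgs (distance 0.0877), Cers4 (0.224), Zfp281 (0.388), Cpsf1 (0.415) and Pfkp (0.429), against a median distance of 1.58. Hgs alone lay within 0.2, and the nearest of the other 7 members, Cd3g, ranked 710. For Cd3e they were Leprotl1 (0.0263), Trbv3 (0.0505), Stt3a (0.0588), Sat1 (0.0600) and Hsd17b10 (0.0667). Level genes had many like them: 266 genes lay within 0.2 of Cd3d and 247 within 0.2 of Trac. No member was among the nearest 5 of another, and Cd3d and Trac were closest to each other among the members, at rank 21.

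The genes around the receptor were read from 6 lists with 95 genes, of which 88 were tested. The edgeR test called 0 of them, beside 0.0% of all tested genes; 5 had an unadjusted p under 0.05. DESeq2 called 1 (Cbl), beside 1.92% of all, and limma-voom 0. The authors' deposited table called 3 (Rasgrp1, Cbl and Hgs), beside 1.56%. The median log2 fold change of the 88 was 0.11, with 53 positive, while that of all tested genes was 0.00. The groups did not overlap for 25 of the 88, 14 higher and 11 lower, beside 33.8% of all tested genes.

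Other receptor chains were scarce. Of 7 genes 4 were tested, 0 were called, 1 was positive, and the median log2 fold change was -0.35. Trdc, the delta constant gene, stood between 6.95 and 10.4 CPM. Tcrg-C1, a gamma constant gene, stood at 11.4 and 39.6 CPM in Vav1R63W libraries and at 10.1 and 24.9 CPM in the deletion-labelled ones. Tcrg-C4 stood at 5.0 and 5.28 against 0.063 and 19.8 CPM. Tcrg-C2 stood at 6.43 and 1.6 CPM in Vav1R63W libraries and had 0 reads in both others. Its level there was at least 19.9-fold lower, set against a limit of 3 reads for each library (0.188 and 0.215 CPM, counting error only), and edgeR's adjusted p was 0.900. Without Vav1R63W replicate 2 the bound was 7.93-fold, and without replicate 3 it was 31.9-fold. The list median is the same with Tcrg-C2 at that bound. Ptcra, the pre-T alpha chain of thymocytes, had no read.

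Of 11 coreceptors and costimulatory receptors 9 were tested and 0 called, with 5 positive and a median log2 fold change of 0.09. Cd2, an adhesion receptor, stood between 1501 and 1577 CPM in all 4 libraries. Ptprc, which encodes the phosphatase CD45, stood between 560 and 749 CPM, and Cd6, a receptor that modulates T cell signals, between 395 and 669 CPM. Ctla4, an inhibitory receptor that regulatory T cells use to suppress, stood at 173 and 160 CPM in Vav1R63W libraries, and at 112 and 93.0 CPM in the deletion-labelled ones. Its groups were apart, with a log2 fold change of -0.68 ± 0.24 (SE) that did not pass (edgeR adjusted p 0.987).

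Of 27 proximal kinases, phosphatases and adaptors 26 were tested and 0 called, with 16 positive and a median of 0.15. Lck, the kinase that phosphorylates the motifs shown above, stood at 1916 and 1946 CPM in Vav1R63W libraries and at 2442 and 1885 CPM in the deletion-labelled ones, with overlapping groups. Lat (464 to 564 CPM) and Skap1 (461 to 592 CPM), both adaptors, also overlapped. Rasgrp1, which activates RAS below the receptor, stood at 109 and 71.5 CPM against 213 and 189 CPM. Its groups were apart, with a log2 fold change of 1.18 ± 0.30 (SE) and an edgeR adjusted p of 0.900, and it passed in the authors' deposited table (adjusted p 0.00699). Ptpn6, which encodes SHP-1, stood at 268 and 211 against 179 and 152 CPM. Its groups were apart and it did not pass with edgeR (log2 fold change -0.51 ± 0.22, SE).

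Of 21 genes of receptor turnover and trafficking 20 were tested and 0 called by edgeR, with 15 positive and a median of 0.22. Laptm5, a lysosomal protein that lowers CD3 zeta protein, stood between 1634 and 1970 CPM with overlapping groups. Sla, which encodes the adaptor SLAP, stood at 207 and 162 CPM against 252 and 246 CPM, and Snx17, a sorting nexin, between 250 and 300 CPM. Cbl, a ubiquitin ligase of activated receptors, stood at 59.6 and 72.9 CPM in Vav1R63W libraries and at 7.21 and 14.2 CPM in the deletion-labelled ones. Its log2 fold change was -2.60 ± 0.68 (SE), with an adjusted p of 0.900 in edgeR and 0.0369 in DESeq2. Hgs, a subunit of the ESCRT sorting machinery, stood at 25.8 and 29.2 CPM against 70.5 and 83.5 CPM (log2 fold change 1.51 ± 0.45, SE; edgeR adjusted p 0.900). Rab4a, a GTPase of recycling endosomes, stood at 6.78 and 8.33 against 21.7 and 55.9 CPM. All of these last 3 had groups apart, and edgeR called none of them.

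**Figure D5:**
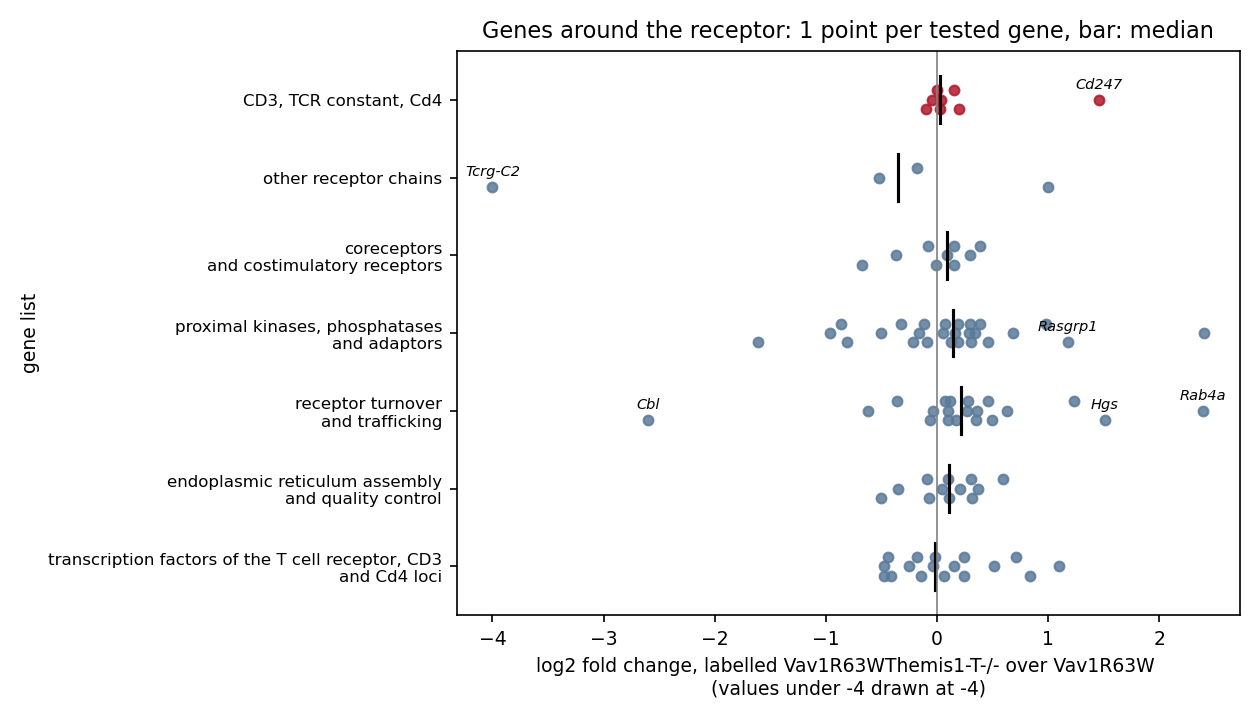
Log2 fold change of the libraries labelled Vav1R63WThemis1-T-/- over Vav1R63W (horizontal axis) for each tested gene of the members and of 6 lists (vertical axis), with a bar at each median and names for some of the genes furthest from 0. The list medians run from -0.35 to 0.22, and Cbl (-2.60), Rab4a (2.39) and Hgs (1.51) lie far from theirs in the turnover list.

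Of 12 genes of assembly and quality control in the endoplasmic reticulum, where the receptor is put together, all 12 were tested and 0 called, with 8 positive and a median of 0.11. Canx, the chaperone calnexin, stood at 137 and 184 CPM in Vav1R63W libraries and at 240 and 237 CPM in the deletion-labelled ones. Its groups were apart and it did not pass (edgeR log2 fold change 0.60 ± 0.24, SE). Calr, which encodes calreticulin, stood between 304 and 363 CPM, and Pdia3, a disulfide isomerase, between 812 and 977 CPM. Hspa5, the chaperone BiP, stood at 672 and 603 against 639 and 347 CPM.

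Of 17 transcription factors of these loci all were tested and 0 called, with 8 positive and a median of -0.02. Ets1, an ETS family factor, stood at 938 and 956 CPM in Vav1R63W libraries and at 861 and 822 CPM in the deletion-labelled ones. Its groups were apart by a log2 fold change of -0.15 ± 0.11 (SE). Tcf7 and Lef1 encode related factors of T cell development. The groups overlapped for Tcf7 (374 to 573 CPM) and were apart for Lef1 (334 and 370 against 258 and 325 CPM). The Lef1 log2 fold change was -0.25 ± 0.21 (SE), and -0.07 without the deletion-labelled library in which Themis was read. Gata3 stood at 40.1 and 91.3 against 105 and 127 CPM, and Runx1 at 33.5 and 45.7 against 64.1 and 64.0 CPM. Ctcf, which organises chromatin loops, stood at 135 and 101 against 83.6 and 82.3 CPM. None of these passed in edgeR.

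Markers of other cells were read beside these values, since CD3 genes are read from any T cell. All 7 markers of regulatory T cells and the gate were detected, summing to 4243 to 4291 CPM in Vav1R63W libraries and 3466 to 4498 CPM in the deletion-labelled ones. None of 7 monocyte and macrophage or 6 dendritic cell markers had a read. Of 8 B cell markers 5 were detected, at 1179 to 1305 against 1312 to 1370 CPM, nearly all from Ighm (1111 and 1234 against 1274 and 1307 CPM), with the B cell genes Ms4a1 and Pax5 at 0. Cd8a, which defines CD8 T cells, was at 0, and Cd8b1 lay between 19.3 and 38.5 CPM. Of 6 markers of NK and innate lymphoid cells 3 were detected, at 131 to 168 against 124 to 160 CPM, nearly all from Nkg7, with Ncr1, Klrb1c and Klre1 at 0. Of 6 gamma delta T cell markers 4 were detected (31.5 to 56.9 against 19.9 to 51.6 CPM). Of 6 thymocyte markers 3 were detected (45.3 to 55.7 against 19.3 to 73.3 CPM), with Rag1, Rag2 and Ptcra at 0. That list includes Themis, which made up 42.9 of the 73.3 CPM and none of the 19.3 CPM. Of 6 erythroid markers 3 were detected, at no more than 8.65 CPM. The summed B cell list was higher in the same libraries as Cd247 through Ighm. Cd79a, at 9.64 and 5.35 against 2.38 and 0 CPM, was lower there, and Cd79b, at 58.3 and 63.6 against 35.5 and 62.7 CPM, overlapped between the groups. The median log2 fold change of the 3 tested genes of the list was -0.28. The part of Ighm in the result was not tested.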

How the data were processed

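RNA of sorted regulatory T cells was sequenced in 4 libraries, 2 a group, assigned to groups by their titles. The tools named are Trim Galore for trimming, STAR for alignment and counting, and FastQC and MultiQC for quality, per the submitters' processing notes, with versions not given in the sources used here. Ensembl release 90 is named in the design text and build mm9 in the notes, and these differ. Positions are from GENCODE M21 (GRCm38), matched by gene ID after counting.

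The deposited files hold raw counts of reads per gene, without strand and for each strand. The authors' deposited table holds the same counts for all 52636 genes, DESeq2-normalized counts rounded to whole numbers (a score) and their mean (a signal). It also gives the fold change as a ratio, its log2 and p-values, per the file headers. The 4 summary lines of each count file, 21.1% to 23.1% of its reads, were left out.

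Levels are CPM of the unstranded counts over the reads assigned to genes. Fits used edgeR 4.0.16 in R 4.3.3 with TMM factors. Genes were kept by filterByExpr (count of at least 10, total of at least 15). The two-sided quasi-likelihood F test, robust and unblocked, compared the labelled genotypes, and calls were made where the Benjamini-Hochberg adjusted p over all tested genes was under 0.05. All 8 genes described passed the filter. Standard errors are the log2 fold change over the square root of F. Errors are standard deviations over 2 libraries unless called SE. The script was tested on simulated data.

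The genes and lists were chosen with earlier results of these data known. Named genes are the 8 members, Themis, 3 genes of the sort gate, the 3 members of each list with the highest CPM and the 3 with the smallest p, the highest gene of the marker lists, and the 5 nearest patterns of Cd247 and Cd3e. Genes that overlap a member, and markers named beside the highest of their list, are named outside that rule. Some genes that the rule names are not reported here. Alternatives were DESeq2 1.42.0, limma-voom (limma 3.58.1), other scalings, filters and count columns, a replicate block and leaving out each library. Promoter sequences are from RefSeq (GRCm38.p6). Protein sequences were not used here.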

Additional observations from a re-analysis of the deposited data

How the results depend on the processing

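The number of genes called moved with the tool: 0 in edgeR and limma-voom and 206 in DESeq2 (85 higher). Of the genes around the receptor, DESeq2 called 1, Cbl. With edgeR under other scalings, filters or count columns, and without each library in turn, the count was 0 (range 0 to 0) for all genes and for these lists. Where leaving out a library left 1 in a group, that library was assumed to vary like the others. A log2 fold change of at least 0.5 in size was found for 1 of the 8 genes under each of the 12 alternatives; Cd247 lay between 1.29 and 1.63. Cd3d, Cd3e, Trbc1, Trbc2 and Cd4 changed sign when some library was left out, within ranges that include 0, and Cd3e also with the summed strand columns (-0.08), library totals without TMM (-0.02) and the replicate block (-0.0015).

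For libraries that share a replicate number, the correlation of their deviations from the group means was 0.0181 over 10216 genes. With only 2 libraries a group, this cannot show whether such libraries share anything beyond the number. With the replicate block, 0 genes were called, 0 of the list genes were called, and the Cd247 log2 fold change was 1.46. With 2 libraries a group, the spread rests on few values, and 3 reads correspond to 0.188 to 0.215 CPM.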
